A study of Mus musculus with 2 samples.

Results

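The EGF family consists of growth factors that bind the ERBB receptor tyrosine kinases. The set described here was the ligands Ereg, Areg, Hbegf, Tgfa, Btc, Epgn and Nrg1 and the receptors Egfr, Erbb2 and Erbb3, 10 genes in all. A row of the array's value table was taken as a member when the only gene symbol the platform annotation gave it was one of these. Of the 10 genes, 9 had a row, out of 30142 genes with a row of their own, and they had 11 rows together because Ereg and Nrg1 had 2 each. Areg, which encodes amphiregulin, had no row under its symbol or gene identifier in the annotation used and was not analysed here. The set was chosen because Ereg differed by more than 2-fold between the arrays, so its difference is given as a description and supports nothing else.

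The arrays measured total RNA from cultured adipose-derived stromal cells, fibroblast-like progenitors that grow out of fat tissue. One array held Wisp1 KO cells and the other WT cells, both grown from inguinal fat of C57BL/6J mice 6 to 10 weeks old and kept in DMEM with 15% fetal bovine serum. The Wisp1 KO is a global knockout made by flanking exons 1 to 5 with flox sites and mating to a Cre line whose promoter the labels do not name, and they do not say how many mice gave each sample. With 1 array per genotype there was no replicate, no test and no p-value, and every difference below is Wisp1 KO minus WT on the log2 scale of these 2 arrays. Wisp1 (Ccn4), the targeted gene, which encodes a matricellular protein induced by Wnt signalling, was at 5.40 on the Wisp1 KO array and at 7.79 on the WT array, a difference of -2.39. Whether its probes lie inside the deleted exons was not analysed here.

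Most EGF family ligands are made as membrane-anchored precursors, and surface proteases, chiefly ADAM17, cut them free. A released ligand makes its receptors pair and phosphorylate each other, which switches on the RAS and ERK kinase cascade and PI3 kinase. EGFR binds EGF, TGF-alpha and amphiregulin, and epiregulin, betacellulin and HB-EGF bind both EGFR and ERBB4. Neuregulins bind ERBB3 and ERBB4, and ERBB2 has no ligand of its own and serves as the partner of the others. ERBB3 has little kinase activity and signals through its partner. In fat, EGFR ligands act on progenitor growth, and sustained EGFR signalling is known to hold back fat cell differentiation in culture.

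The ligands were mixed, and no replicate was at hand to set any difference against. Each gene was taken at its brighter row. Among the 6 measured ligand genes, Ereg, which chose the set, was lower, and Epgn was too dim to be read. Of the other 4 ligand genes, Btc and Hbegf were lower and Nrg1 and Tgfa higher, with a median of -0.04. The median over all 6, Ereg and the dim Epgn included, was -0.16. All 3 receptor genes were higher, with a median of 0.09 and Egfr with the largest difference of the 3 (0.31). Over all genes the median was 0, with 47.4% lower and 47% higher, and of genes above the silent level 42.3% were lower and 53.7% higher. In bulk RNA, fewer cells that make a transcript and less of it per cell cannot be told apart.

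**Figure D1:**
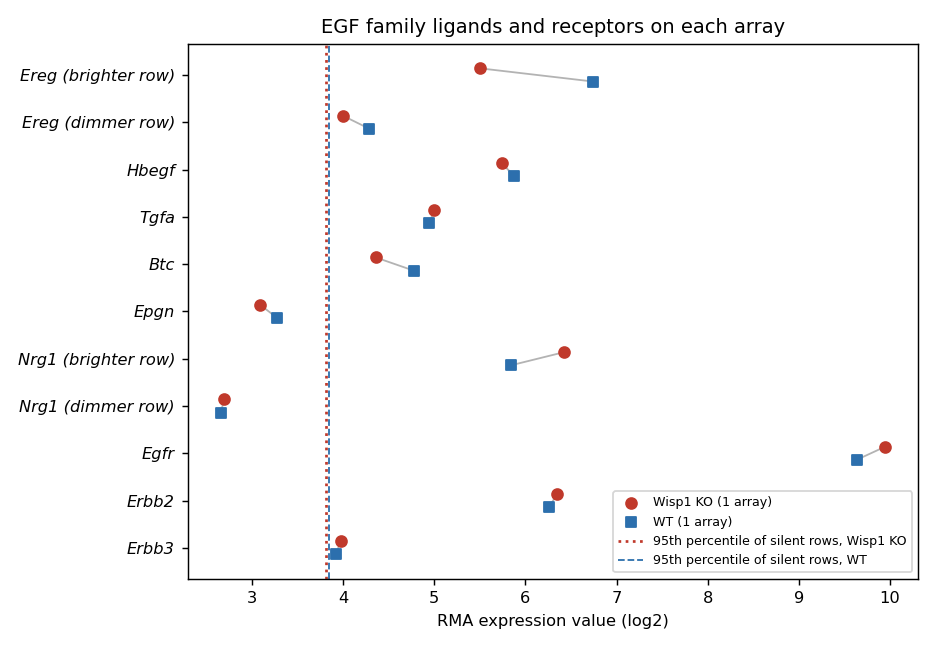
Expression value (log2, horizontal axis) of each member row on the Wisp1 KO array (circles) and the WT array (squares), 1 array each. The vertical lines mark the 95th percentile of silent rows, 3.81 on the Wisp1 KO array and 3.84 on the WT array. The gap is widest for the brighter Ereg row, at 5.50 on the Wisp1 KO array and 6.74 on the WT array.

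Because every probe set gives some signal, the values of 1721 rows of olfactory and vomeronasal receptor genes, which stromal cells are not expected to express, were taken as a silent level. Their 95th percentile was 3.81 on the Wisp1 KO array and 3.84 on the WT array. Of the 11 member rows, 9 exceeded it on at least 1 array. Counted by gene at the brighter row, 8 of 9 members did, and so did 19538 of all 30142 genes. The dim rows were that of Epgn and the dimmer row of Nrg1. Probe sets differ in how brightly they report a transcript, so the levels of member genes were not ranked against each other. The marker sums, the highest and lowest markers and the genes nearest to Ereg below compare array signal, not amounts of transcript.

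Ereg encodes epiregulin, a ligand of EGFR and ERBB4 that is induced in inflammation and in ovulation. Its brighter row was at 5.50 on the Wisp1 KO array and 6.74 on the WT array, a difference of -1.24, or 2.37-fold lower. It ranked sixth from the bottom among the 30604 rows with 1 symbol. Of the 1531 rows in the same twentieth of mean level, none was lower, and the central 95% of them lay between -0.33 and 0.34. That range is a spread across genes and not across replicates. Past 2-fold 1 of 11 member rows was lower, this one, for which the set was chosen, and none was higher. Of all rows, 0.0555% were lower and 0.0359% higher by that much. The next largest difference among the members, inside the 2-fold limit, was that of Nrg1 at 0.59.

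The dimmer Ereg row differed much less. It was at 3.99 on the Wisp1 KO array and 4.29 on the WT array, a difference of -0.29, with both values just above the silent level. The array's numbering placed the rows of Ereg in separate blocks of chromosome 5. The brighter row lay in a block where 530 of 532 named rows with a known strand were on the plus strand, and the dimmer row in one where 520 of 527 were on the minus strand. RefSeq (GRCm38.p6) also lists a long noncoding RNA gene on the minus strand, Gm19610, that overlaps the annotated Ereg gene by 319 bases. Whether the dimmer row reports Ereg or a transcript of the opposite strand was not tested.

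Btc encodes betacellulin, which binds EGFR and ERBB4. It was at 4.36 on the Wisp1 KO array and 4.78 on the WT array, a difference of -0.42, or 1.34-fold lower. A smaller size, 0.32 on the log2 scale, was used to describe members within 2-fold. Past it 2 of 11 member rows were lower, Btc and the Ereg row for which the set was chosen, while 3.07% of all rows were. In the level class of Btc, 19 of 1530 rows were lower.

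Epgn encodes epigen, a ligand of EGFR known mainly from epithelium. It was at 3.09 on the Wisp1 KO array and 3.27 on the WT array, and with both values below the silent level its difference of -0.19 was not read as one of expression. Hbegf encodes HB-EGF, a heparin-binding ligand of EGFR and ERBB4. It was at 5.74 on the Wisp1 KO array and 5.87 on the WT array, a difference of -0.13. In its level class 204 of 1531 rows were lower still.

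Tgfa encodes TGF-alpha, an EGFR ligand of epithelia and of some mesenchymal cells. It was at 5.00 on the Wisp1 KO array and 4.95 on the WT array, a difference of 0.05, with 486 of 1530 rows of its level class higher. The arrays thus separated Tgfa by less than 1.04-fold.

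Nrg1, which encodes neuregulin 1, a ligand of ERBB3 and ERBB4 needed by Schwann cells and the heart, was higher where Ereg was lower. Its brighter row was at 6.43 on the Wisp1 KO array and 5.84 on the WT array, a difference of 0.59. Past 0.32 on the log2 scale 1 of 11 member rows was higher, this one, while 2.73% of all rows were, and 7 of 1531 rows in its level class were higher. The dimmer Nrg1 row, at 2.69 on the Wisp1 KO array and 2.66 on the WT array, lay below the silent level on both. As with Ereg, the pair lay in opposite strand blocks of the numbering. The dimmer row lay where all 373 named rows of chromosome 8 with a known strand were on the plus strand, and the brighter one where 329 of 339 were on the minus strand.

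Among the receptors, Egfr, the receptor for epiregulin, betacellulin, HB-EGF and TGF-alpha, was at 9.95 on the Wisp1 KO array and 9.63 on the WT array. The difference was 0.31, or 1.24-fold higher, just short of 0.32 on the log2 scale, and 71 of 1531 rows in its level class were higher. Erbb2 was at 6.35 on the Wisp1 KO array and 6.26 on the WT array, a difference of 0.09. Erbb3, the neuregulin receptor, was at 3.97 on the Wisp1 KO array and 3.92 on the WT array, a difference of 0.05, and both values were barely above the silent level. Both of these receptors lay well inside the spread of their level classes, with 67.6% of rows lower for Erbb2 and 69.9% for Erbb3.

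**Figure D2:**
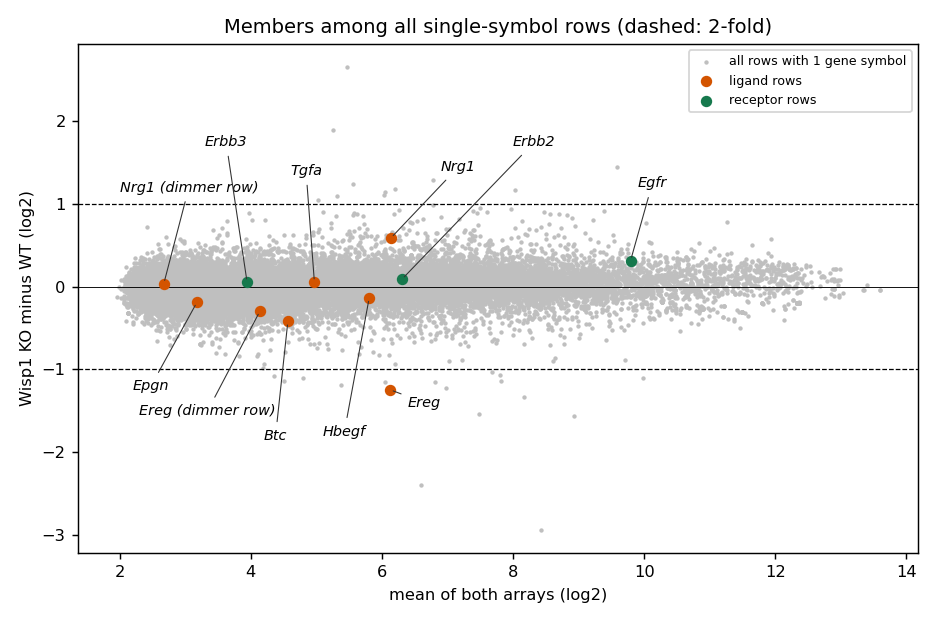
Difference between the arrays (Wisp1 KO minus WT, log2, vertical axis) against the mean of both arrays (log2, horizontal axis) for all 30604 rows with 1 symbol in grey, with ligand rows in orange and receptor rows in green. The brighter Ereg row lies below the dashed 2-fold line at -1.24, and the brighter Nrg1 row (0.59) and Egfr (0.31) lie above 0.

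The family members outside the set were also read. Egf, the founding ligand, was at 4.30 on the Wisp1 KO array and 4.19 on the WT array, a difference of 0.11. Nrg2 was at 5.19 on the Wisp1 KO array and 5.25 on the WT array, a difference of -0.06. Nrg3, Nrg4 and the receptor gene Erbb4 were below the silent level on both arrays, Erbb4 at 3.05 on the Wisp1 KO array and 3.12 on the WT array. Of the receptors that epiregulin can bind, Egfr therefore exceeded the silent level and Erbb4 did not.

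Ereg lies among other EGF family genes in the genome. In the RefSeq gene order of chromosome 5 it follows Epgn and is followed by Areg and then Btc. Apart from Ereg, for which the set was chosen, Btc was the one EGF family gene there with a readable row, at -0.42. Epgn, at -0.19, was below the silent level on both arrays. The flanking genes Mthfd2l and Parm1, picked after their values were seen, were lower by smaller amounts. Mthfd2l, a mitochondrial folate enzyme, was at 6.68 on the Wisp1 KO array and 6.83 on the WT array, a difference of -0.15. Parm1 was at 7.98 on the Wisp1 KO array and 8.15 on the WT array, a difference of -0.16. Of the noncoding neighbours with a row, the small nuclear RNA Gm23092 differed by -0.08 and the long noncoding RNA Gm19619, which was dim, by 0.12. Of the measured genes in this stretch, none but Ereg was past 2-fold and none but Ereg and Btc past 0.32 on the log2 scale.

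**Figure D3:**
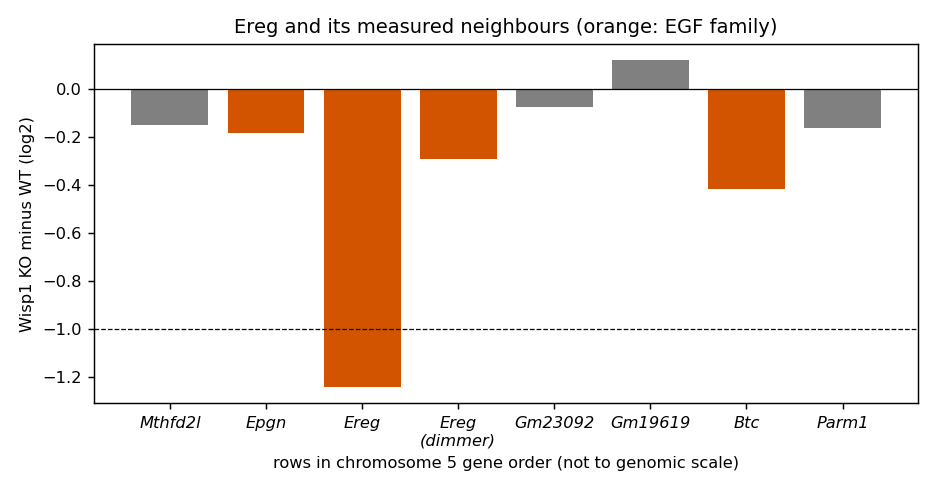
Difference between the arrays (Wisp1 KO minus WT, log2, vertical axis) for the measured rows around Ereg in the RefSeq gene order of chromosome 5, with EGF family genes in orange. The bars reach -1.24 at the brighter Ereg row and -0.42 at Btc, and the flanking genes lie at -0.15 and -0.16.

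Promoter windows of 300 bases around the annotated start were in the RefSeq table (GRCm38.p6) for Areg, Tgfa, Btc, Epgn, Egfr and Erbb2. Those of Btc and Epgn, the measured neighbours of Ereg, and of Egfr, its receptor, are shown because they place the ligand genes next to Ereg beside the gene of its receptor. Capitals mark CG dinucleotides. The windows are Btc at chr5:91402945-91403244 on the minus strand, Epgn at chr5:91027267-91027566 on the plus strand and Egfr at chr11:16751953-16752252 on the plus strand.
Btc: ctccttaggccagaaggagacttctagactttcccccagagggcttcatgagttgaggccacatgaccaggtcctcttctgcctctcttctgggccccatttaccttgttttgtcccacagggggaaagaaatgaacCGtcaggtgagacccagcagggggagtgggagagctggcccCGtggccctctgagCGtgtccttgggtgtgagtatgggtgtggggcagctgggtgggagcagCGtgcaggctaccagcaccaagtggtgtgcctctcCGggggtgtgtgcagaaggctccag
Epgn: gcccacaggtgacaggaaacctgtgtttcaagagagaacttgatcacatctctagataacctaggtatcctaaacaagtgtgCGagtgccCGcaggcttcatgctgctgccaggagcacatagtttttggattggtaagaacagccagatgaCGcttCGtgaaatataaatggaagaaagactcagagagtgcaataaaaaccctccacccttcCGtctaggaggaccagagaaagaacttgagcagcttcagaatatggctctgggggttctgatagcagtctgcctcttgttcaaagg
Egfr: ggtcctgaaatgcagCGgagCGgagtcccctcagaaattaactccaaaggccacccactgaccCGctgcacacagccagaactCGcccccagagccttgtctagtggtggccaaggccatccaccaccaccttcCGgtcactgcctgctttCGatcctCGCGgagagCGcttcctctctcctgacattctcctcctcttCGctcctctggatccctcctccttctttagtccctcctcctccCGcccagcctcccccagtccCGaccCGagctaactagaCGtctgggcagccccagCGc

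The Btc and Epgn windows each held 5 CG dinucleotides and the Egfr window 15, against a median of 7 over 32851 promoter windows of the same length. Tgfa had 24, Areg 21 and Erbb2 21, all above the Egfr window. Both strands were searched for a few short motifs. The TEAD motif GGAATG was in the Erbb2 window alone of the 6 and in 14.7% of all windows, and the AP-1 motif TGANTCA (N read as C or G) was in none of the 6 and in 5.20% of all windows. The full cyclic AMP response element TGACGTCA was in the Areg window alone and in 1.79% of all windows. Its core TGACG, which lies within it, was also in the Btc, Epgn and Erbb2 windows and in 20.8% of all windows. The GC box GGGCGG was in the Areg, Tgfa and Egfr windows and in 35.7% of all windows. A match describes these letters only.

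The genes whose values lay closest to the brighter Ereg row over both arrays were found by the distance between their pairs of log2 values (n = 2 arrays). In order these were Klk8, a secreted serine protease, Tnfsf15, a TNF family ligand, Tspan2, a tetraspanin, Aqp1, a water channel, and Ch25h, which makes an oxysterol. Klk8, at a distance of 0.12, was at 5.48 on the Wisp1 KO array and 6.62 on the WT array. Ch25h, at a distance of 0.43, was at 5.83 on the Wisp1 KO array and 6.46 on the WT array. With a pair of arrays this likeness is no more than a similar level and a similar difference.

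The pathway around the receptors was read from 8 lists of genes, of which 74 genes had a row of their own. The shedding list holds the proteases that release the ligands, their cofactors and inhibitors. Of its 13 measured genes 10 were lower, 2 higher and 1 equal on both arrays, and the median was -0.08. Of the 13, 12 were above the silent level, where 42.3% of genes were lower and 53.7% higher. The other gene, 1 of the 10 lower, was below that level on both arrays, and without it the median was -0.06. None of the 13 was past 0.32 on the log2 scale in either direction, while of genes above the silent level 3.1% were lower and 3.62% higher by that much. Adam12, also on the list, shared its cluster with 5830403F22Rik and was not counted, and that cluster differed by 0.61. Adam17, the main sheddase of EGF ligands, was at 7.28 on the Wisp1 KO array and 7.22 on the WT array, a difference of 0.07. Of the counted genes above the silent level, Timp3, an inhibitor of ADAM17, differed most (-0.24). It was at 9.71 on the Wisp1 KO array and 9.95 on the WT array. Next was Bace1, a protease that cuts neuregulin 1 (-0.15).

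The relay list, of adaptors and kinases that carry the signal inward, showed small differences. Of its 15 measured genes 11 were higher and 4 lower. The median was 0.06, and none was past 0.32 in either direction. Ptpn11, the phosphatase SHP2, was at 8.30 on the Wisp1 KO array and 8.53 on the WT array (-0.24). Pik3r1, a regulatory subunit of PI3 kinase, was at 9.11 on the Wisp1 KO array and 8.94 on the WT array (0.17). Among genes above the silent level, 53.7% were higher and 42.3% lower.

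The list of receptor and ERK pathway inhibitors was split, with 10 of 21 genes lower, 10 higher and 1 equal, and a median of 0. Of genes above the silent level, 42.3% were lower and 53.7% higher. Past 0.32 on the log2 scale 2 of 21 were lower and 2 higher, against 3.1% and 3.62% of genes above the silent level. Cblb, a ubiquitin ligase that marks active EGFR for removal, was at 9.05 on the Wisp1 KO array and 8.60 on the WT array, a difference of 0.46. Lrig3, a membrane protein of a family that includes receptor inhibitors, was the other gene past 0.32 in the higher direction, at 7.32 on the Wisp1 KO array and 6.94 on the WT array (0.38). Dusp4, a nuclear phosphatase of ERK, was at 6.61 on the Wisp1 KO array and 7.16 on the WT array (-0.55). Dusp6, its cytoplasmic counterpart, was at 5.41 on the Wisp1 KO array and 5.79 on the WT array (-0.39). Errfi1, a feedback inhibitor that binds the EGFR kinase, differed by 0.22.

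Of 9 measured transcripts that are widely used as a readout of ERK activity, 7 were lower and 2 higher. Of genes above the silent level, 42.3% were lower and 53.7% higher. The list median was -0.18. Past 0.32 on the log2 scale 4 of 9 were lower, Epha2, Dusp4, Dusp6 and Phlda1, and none was higher, while of genes above the silent level 3.1% were lower and 3.62% higher by that much. Epha2, an ephrin receptor kinase, was at 5.60 on the Wisp1 KO array and 6.16 on the WT array (-0.56). Phlda1 was at 8.06 on the Wisp1 KO array and 8.41 on the WT array (-0.35). The 2 higher genes were Spry2 (0.15) and Epha4 (0.01). Dusp4, Dusp6, Spry2 and Spry4 are also on the inhibitor list, so these lists are not separate measurements. Etv4 (-0.09) and Etv5 (-0.18), transcription factors that follow ERK activity, were lower by less.

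Genes that EGF induces early in fibroblasts did not share that direction. Of 11 measured genes 6 were higher and 5 lower, and the median was 0.04. Of genes above the silent level, 53.7% were higher and 42.3% lower. Egr1, an immediate early transcription factor, was at 7.68 on the Wisp1 KO array and 7.06 on the WT array (0.63), and Myc was at 8.17 on the Wisp1 KO array and 7.80 on the WT array (0.36). Past 0.32 on the log2 scale 2 of 11 were higher, these genes, and none was lower, against the same 3.62% and 3.1% of genes above the silent level. Fosl1, at 6.39 on the Wisp1 KO array and 6.69 on the WT array (-0.30), was the lowest member. Fos differed by -0.05.

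In the mouse ovary, Ereg, Areg and Btc induce a small set of genes in cumulus cells, and all 4 of that list were measured. Ptgs2, the inducible prostaglandin synthase, was at 9.43 on the Wisp1 KO array and 10.53 on the WT array, a difference of -1.10, or 2.14-fold lower, the only gene of these lists past 2-fold, while 0.087% of genes above the silent level were that much lower. The other genes were higher. Tnfaip6, a hyaluronan-binding protein, was at 6.07 on the Wisp1 KO array and 5.42 on the WT array (0.65). Has2, a hyaluronan synthase, was at 8.50 on the Wisp1 KO array and 8.15 on the WT array (0.35), and Ptx3 differed by 0.11.

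**Figure D4:**
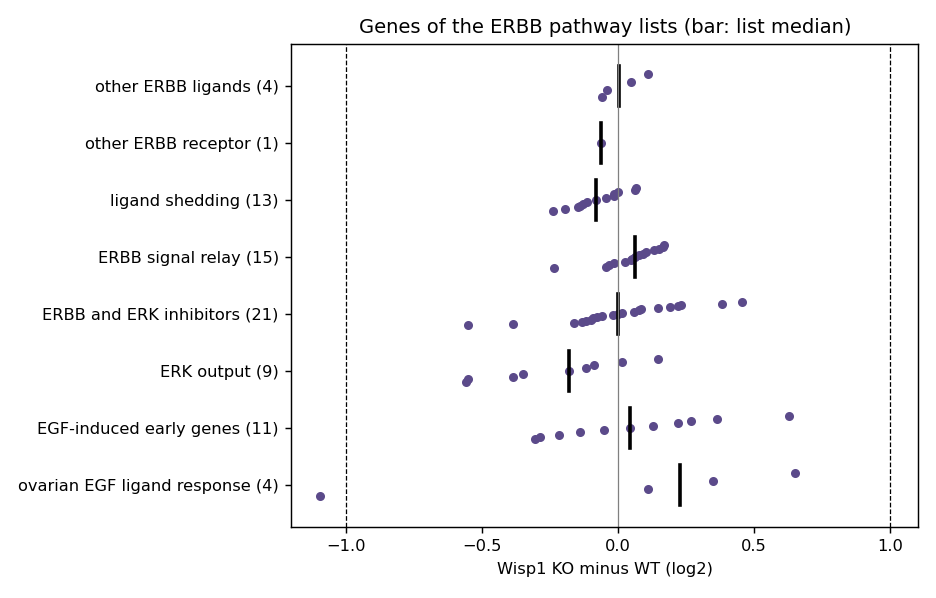
Difference between the arrays (Wisp1 KO minus WT, log2, horizontal axis) for each measured gene of the 8 ERBB pathway lists, with the number of genes in brackets and a bar at the list median. The ERK output list has its median at -0.18, the shedding list at -0.08 and the relay list at 0.06. The gene left of the lower 2-fold line is Ptgs2 at -1.10.

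Markers of stromal and of other cell types that express these ligands and receptors were read beside the results. Of 8 stromal markers 6 had a row of their own, all above the silent level. Their median was 9.63 on the Wisp1 KO array and 9.43 on the WT array. All 6 were higher on the Wisp1 KO array, as were 53.7% of genes above the silent level. Pdgfra, also on the list, shared its cluster with Mir7025 and was not counted, and that cluster differed by 0.03. Epithelial cells of skin and mammary gland, a known source of EGFR ligands in the inguinal region, had 8 markers with a median of 4.59 on the Wisp1 KO array and 4.69 on the WT array. Epcam was below the silent level, at 3.45 on the Wisp1 KO array and 3.52 on the WT array, and Krt19 was highest, at 6.03 on the Wisp1 KO array and 6.02 on the WT array. Summed on the linear scale, the epithelial markers came to 224 on the Wisp1 KO array and 228 on the WT array.

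Macrophages, which make HB-EGF and epiregulin when activated, had 8 markers, of which 6 were higher, 1 lower and 1 equal. Of the 8, 5 were above the silent level, where 53.7% of genes were higher and 42.3% lower. All 5 were higher: Lyz2 (1.29), Fcer1g (0.90), Cd68 (0.58), Tyrobp (0.51) and Csf1r (0.01). The linear sum of the 8 markers was 406 on the Wisp1 KO array and 236 on the WT array. Lyz2 was past 2-fold higher, at 7.43 on the Wisp1 KO array and 6.14 on the WT array. Of 19538 genes above the silent level, 10 were past 2-fold higher. Ptprc, the equal marker, and Adgre1, the lower one, which define the leukocyte and macrophage lineages, were below the silent level on both arrays. The sum of the 8 markers was larger on the Wisp1 KO array, where Ereg and Hbegf were lower, and its part in those results was not tested. Schwann cells, which depend on neuregulin 1 and ERBB3, had 5 measured markers with a linear sum of 227 on the Wisp1 KO array and 202 on the WT array. Of the 5, 3 were lower and 2 higher, with a list median of -0.05. The lineage factor Sox10 differed by 0.05, S100b by -0.15, Mbp by -0.13 and Gfap by -0.05, and the sum was larger through Ngfr (0.45), which stromal cells also express. Adipocyte markers summed to 555 on the Wisp1 KO array and 511 on the WT array, but 3 of the 6 were lower, and Lpl, at 8.86 on the Wisp1 KO array and 8.63 on the WT array, made up most of the sum. The adipocyte hormone gene Retn was past 2-fold lower, at 3.81 on the Wisp1 KO array and 4.90 on the WT array (-1.08). Its Wisp1 KO value lay at the silent level, and 0.087% of genes above that level were past 2-fold lower. Adipoq differed by -0.64, with its Wisp1 KO value (3.86) just above the silent level. Cidec differed by -0.13, Plin1 by 0.04 and Lep, which was dim, by 0.05. Endothelial markers summed to 129 on the Wisp1 KO array and 115 on the WT array, and 4 of the 6 were higher and 2 lower. Cdh5 (0.80) and Emcn (0.80) were higher, from WT values below the silent level. Tek (-0.14) and Vwf (-0.03) were lower. Pecam1 and Kdr were below the silent level on both arrays. No marker can be read as 0, since this scale has no true zero.

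**Figure D5:**
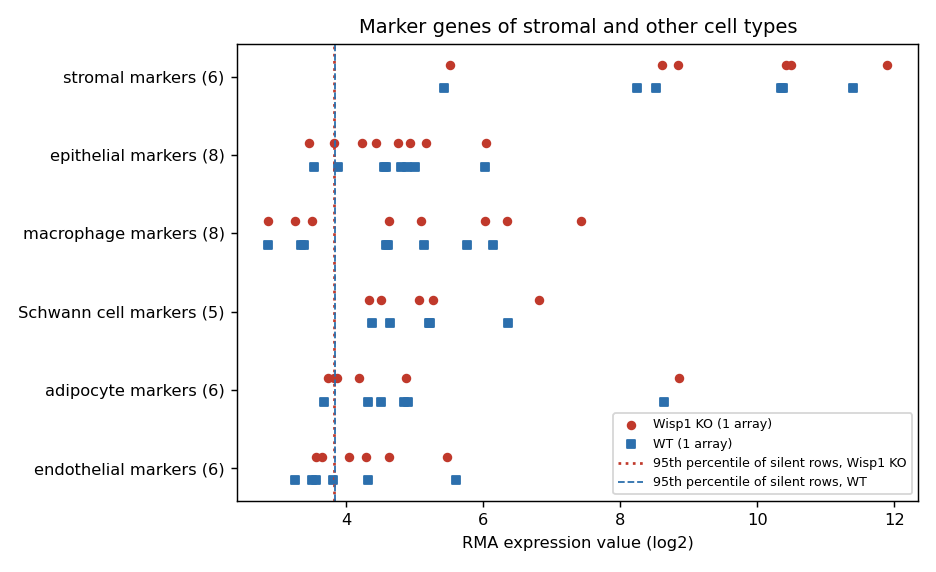
Expression value (log2, horizontal axis) of the measured marker genes of 6 cell types on the Wisp1 KO array (circles) and the WT array (squares), with the number of genes in brackets. Stromal markers reach 11.90 on the Wisp1 KO array and 11.40 on the WT array, and the vertical lines mark the 95th percentile of silent rows.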

How the data were processed

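Total RNA of 1 Wisp1 KO and 1 WT stromal cell sample was hybridised to 1 Affymetrix array each after WT PLUS labelling, per the labels' protocols. The deposited values are log2 expression, made with RMA in Partek by the authors, per the submitters' processing notes. Versions, the genome build and the set of arrays normalized together are not given in the sources used here. RMA makes array distributions alike and compresses differences of dim genes. The log2 scale was taken from the range of the values, 1.74 to 13.65 on the Wisp1 KO array (median 3.92) and 1.88 to 13.62 on the WT array (median 3.93). The values are levels of single arrays, not centred by gene, and no scanner files were used here to check the scale.

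Of 65956 transcript clusters, 30604 had 1 gene symbol in the platform annotation, 2146 had several and were left out, and 33206 are unnamed here. Symbols were updated by Entrez identifier through RefSeq (GRCm38.p6), which also gave gene order and promoters. Differences are Wisp1 KO minus WT with no further normalization, and lists take a gene at its brighter row. Level classes are twentieths of the rows with 1 symbol by mean level. No test is possible with 1 array per group, and the number of arrays limits the precision. The members and lists were chosen with earlier results of these data known. Genes named by rule are all members, Wisp1, in each pathway list the 2 largest differences above the silent level and any past 2-fold, the highest and lowest markers, the 5 genes nearest to Ereg and its closest neighbours. Adam17, Errfi1, Lrig3, Dusp6, Phlda1, Spry2, Epha4, Etv4, Etv5, Fosl1, Fos, Has2, Ptx3, Nrg3, Nrg4, Sox10, S100b, Mbp, Adipoq, Retn, Adgre1, Mthfd2l, Parm1 and Gm19619 fall outside that rule and were named after their values were seen. The same holds for Cdh5, Vwf, Pecam1, Plin1, Cidec, Fcer1g, Cd68, Tyrobp, Csf1r and Erbb4. It also holds for Pdgfra, Adam12, Ccnd1 and Junb. Alternatives were other scalings, row summaries, filters and fold sizes. The counting step was run on simulated arrays with planted differences well past 2-fold, which checks the code and not the calls made here. Tools were Python 3.11.15 with pandas 2.3.3, numpy 2.4.6, matplotlib 3.10.9 and statsmodels 0.14.6.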

Additional observations from a re-analysis of the deposited data

How the results depend on the processing

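The results were recomputed with arrays centred on their medians, quantile normalization, loess centring on mean level (span 0.3), the mean over the rows of a gene, rows with several symbols kept, only rows above the silent level, and 1.5-fold in place of 2-fold. A value was taken as unmoved when it stayed on its side of 2-fold and within 0.1 on the log2 scale, and a count when it stayed within 1.5 times. Of 120 values so recomputed 114 did not move, 6 did, and no difference past 2-fold changed sign. The Ereg difference lay between -1.27 and -1.23 with the brighter row under every normalization tried and was -0.77 as the mean of both rows, which leaves 0 members past 2-fold lower, against 1. Nrg1 was 0.31 as the mean of both rows, against 0.59, which leaves 0 members past 0.32 on the log2 scale higher, against 1. With arrays centred on their medians, Egfr, at 0.33, passed 0.32 as well, which made 2 members past it in the higher direction, while with loess centring Egfr was at 0.28. At 1.5-fold 1 member, Nrg1, was past the size in the higher direction, against 0 at 2-fold. The ligand median, with Ereg included, ranged from -0.16 to -0.13 and the receptor median from 0.07 to 0.10. Keeping rows with several symbols, chosen for the pathway lists after seeing the data, brought in Ccnd1 and moved the ERK output median to -0.26, against -0.18, and it turned the median of the early genes to -0.0040, against 0.04. No paired analysis was possible because each genotype had 1 array. With 1 array a genotype, no replicate could be left out, and signal over background limits Epgn, Erbb3 and the dimmer rows of Ereg and Nrg1.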

Other observations

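Some genes of the pathway lists shared a transcript cluster with another gene and stood outside the comparisons. The cluster of Ccnd1, the cyclin D1 gene that mitogens induce through ERK, also carries Mir3962 and was at 7.53 on the Wisp1 KO array and 8.39 on the WT array, a difference of -0.86. The cluster of Adam12, a metalloprotease that can release HB-EGF, also carries 5830403F22Rik and was at 8.73 on the Wisp1 KO array and 8.12 on the WT array, a difference of 0.61. The cluster of Junb and Prdx2 differed by -0.14.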
